A study of Mus musculus with 16 samples.

Results

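Cytochrome P450 and glutathione transferase (GST) genes were examined for changes in chromatin accessibility between the non-NE and the NE cells of mouse small cell lung cancer (SCLC). The genes were chosen by symbol, as the protein-coding genes of the basic GENCODE annotation (mm10) named Cyp1, Cyp2, Cyp3 or Cyp4 with a letter and a number, or Gsta, Gstk, Gstm, Gsto, Gstp or Gstt with a number. This gave 101 genes, 80 P450 genes and 21 GST genes, of 21924 protein-coding genes. Of the 80367 ATAC-seq peaks listed by the authors as differing between the cell populations, 145 had one of these genes at the nearest protein-coding transcription start site, 92 at P450 genes and 53 at GST genes. The choice was made by symbol and position among peaks that had passed the authors' limits.

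ATAC-seq marks accessible chromatin through the insertion of sequencing adaptors by the Tn5 transposase. The tumours arose in TKO;Hes1 GFP/+ mice. TKO stands for the loss of Rb, p130 and p53, which Cre removed after an adenovirus (Ad-CMV-Cre) was given through the trachea, and the CMV promoter, active in most cell types, does not restrict Cre to 1 of them. The study describes the tumours of this model as arising mostly from non-NE cells of the lung epithelium. GFP was placed at 1 allele of Hes1, a Notch target, so every cell compared was heterozygous for Hes1 as well as mutant for the 3 tumour suppressors. GFPhigh (non-NE) and GFPneg (NE) cells were sorted from the pooled tumours of single mice as CD24-positive cells, after removal of CD45-, CD31- or TER-119-positive blood and endothelial cells, and the methods name no treatment of either group. The labels gave 8 libraries, 4 of each population, from 3 mice by the numbers in their titles, with 2 libraries of each population from 1 of these mice. Each library was run on 2 lanes, which made 16 runs. By the methods, the tumours were induced in young adult mice of both sexes and were collected some months later, and the age of each mouse is not in the labels.

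Cytochrome P450 enzymes are heme proteins of the endoplasmic reticulum that add oxygen to drugs, pollutants, steroids and fatty acids, with electrons from the P450 reductase POR. The glutathione transferases couple the reactive products to glutathione, which makes them soluble and fit for export. In the lung these enzymes are concentrated in club cells, the secretory cells of the airways, where CYP2F2 turns naphthalene into a toxic epoxide. Many of the genes arose by local duplication and stand in arrays of similar copies.

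The deposited lists give peaks that passed the authors' limits, as opened (more accessible in GFPhigh than in GFPneg cells) or closed (less accessible in GFPhigh cells). For each peak the only level used here was the mean over all libraries of the read count divided by a size factor, called the mean normalized count. This is the authors' mean over both populations, it has no SD or n, and it says nothing of the difference between them. It also grows with the width of a peak. No value per library was used and the depth per library is unknown, so no difference was tested and the spread between mice could not be measured. Shares are given with Wilson 95% intervals, which cover counting error only and treat neighbouring peaks as independent. In sorted bulk cells, fewer cells with an open site and less opening per cell cannot be told apart.

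The following stretches of the mm10 genome (GRCm38 sequence of RefSeq) are shown because they lie at the centre of the peaks of well known lung and xenobiotic enzymes. Each is read 5′ to 3′ on the strand of its gene, within the central 200 bp of the peak and outside annotated exons, with the motif strings searched below in capitals. The first is the promoter of Cyp1b1 at chr17:79715779-79715978 (minus strand), with GCGTG, the core of the aryl hydrocarbon receptor (AHR) site, present as CACGC at 2 positions, and an RBPJ string. The second lies in an intron of Cyp2b10 at chr7:25902151-25902350 (plus strand), with TEAD, AP-1 and C/EBP strings. The third is the closed peak upstream of Cyp2a5 at chr7:26831815-26832014 (plus strand), with an RBPJ string.
Cyp1b1 promoter, opened: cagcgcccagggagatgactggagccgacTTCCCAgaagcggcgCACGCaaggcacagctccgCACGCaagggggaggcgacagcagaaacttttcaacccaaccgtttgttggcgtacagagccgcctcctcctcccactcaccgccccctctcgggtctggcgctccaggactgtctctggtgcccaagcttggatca
Cyp2b10 intron, opened: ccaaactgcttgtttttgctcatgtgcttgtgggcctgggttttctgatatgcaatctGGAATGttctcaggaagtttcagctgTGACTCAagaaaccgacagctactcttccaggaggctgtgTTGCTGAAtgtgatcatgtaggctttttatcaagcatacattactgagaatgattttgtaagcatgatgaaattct
Cyp2a5 upstream, closed: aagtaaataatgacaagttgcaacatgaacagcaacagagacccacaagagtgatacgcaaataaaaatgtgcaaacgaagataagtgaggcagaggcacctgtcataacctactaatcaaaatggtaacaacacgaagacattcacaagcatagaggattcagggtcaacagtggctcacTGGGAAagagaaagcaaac

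The shorter stretches below come from the promoter peaks of 3 GST genes, on the minus strand, at chr3:108017690-108017739 (Gstm1), chr3:107986454-107986509 (Gstm2) and chr10:75798585-75798688 (Gstt1). The peak upstream of Cyp2f2 at chr7:27118252-27118451 (plus strand) was added after its values were seen, because it had the highest level of the Cyp2f2 peaks. None of the strings occurs in the Gstm1 and Cyp2f2 stretches. The Gstm2 stretch holds a C/EBP string, and that of Gstt1 a TEAD string and an AHR core.
Gstm1 promoter, opened: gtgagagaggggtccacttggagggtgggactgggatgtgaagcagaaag
Gstm2 promoter, opened: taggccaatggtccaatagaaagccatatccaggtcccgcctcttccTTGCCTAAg
Gstt1 promoter, opened: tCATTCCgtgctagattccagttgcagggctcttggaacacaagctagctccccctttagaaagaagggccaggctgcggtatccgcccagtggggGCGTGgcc
Cyp2f2 upstream, opened: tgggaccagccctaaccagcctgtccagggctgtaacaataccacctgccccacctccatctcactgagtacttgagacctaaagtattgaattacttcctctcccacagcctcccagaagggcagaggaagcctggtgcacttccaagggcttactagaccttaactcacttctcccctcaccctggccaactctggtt

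Most listed peaks at P450 and GST genes were opened in the non-NE cells. Of the 145 peaks, 112 were opened and 33 were closed, an opened share of 77.2% (Wilson 69.8 to 83.3%), against 50.8% opened and 49.2% closed among all listed peaks. The share was alike in P450 genes (71 of 92 peaks, 77.2%) and in GST genes (41 of 53 peaks, 77.4%). The loci of these genes also had more opened than closed peaks around them. Of 1136 listed peaks of other genes within 500 kb of one of the 145 peaks, 711 were opened (62.6%, Wilson 59.7 to 65.4%). The opened share was 90.3% (28 of 31 peaks, Wilson 75.1 to 96.7%) within 1 kb of the start site, where it was 74.3% over all listed peaks. Farther away it was 73.7% (84 of 114 peaks, Wilson 64.9 to 80.9%), against 47.3% over all listed peaks at such distances.

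**Figure D1:**
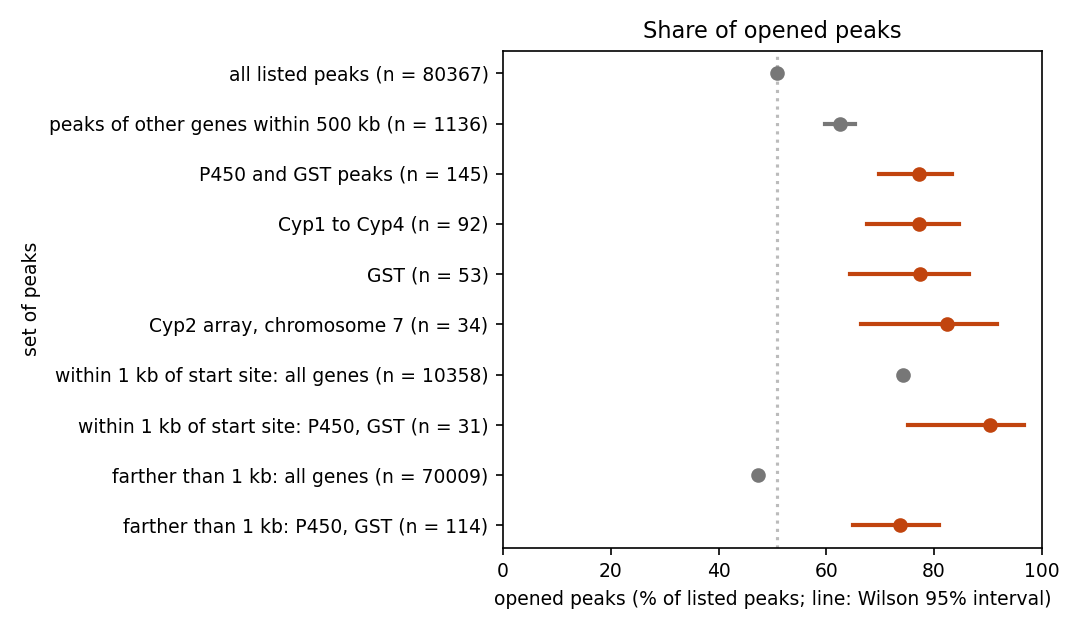
The points give the share of listed peaks that were opened in GFPhigh cells (x axis, percent) in each set of peaks (y axis, with its number of peaks), the lines Wilson 95% intervals, and the dotted line the share over all listed peaks. P450 and GST peaks (orange, 77.2%) sit to the right of all listed peaks (grey, 50.8%) and of the peaks of neighbouring genes (62.6%).

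Fewer of these genes than of all protein-coding genes had a listed peak, namely 57 of 101 (56.4%) against 66.6% of all. The families were unequal in this. Of the GST genes 20 of 21 had one, and of the P450 genes 37 of 80 (46.2%). Only opened peaks were found at 31 genes and only closed peaks at 15, while 11 genes had both and 44 had none. Among the genes with a listed peak, 54.4% had only opened ones, against 36.9% over all protein-coding genes, and 26.3% had only closed ones, against 21.7%. A gene with a peak had a median of 2 peaks, against 3 over all protein-coding genes with a peak. By family, the opened and closed peaks numbered 12 and 1 in Cyp1, 41 and 13 in Cyp2, 2 and 3 in Cyp3, and 16 and 4 in Cyp4. In the GST classes they numbered 11 and 3 in alpha (Gsta), 2 and 0 in kappa (Gstk), 12 and 6 in mu (Gstm), 3 and 1 in omega (Gsto), 2 and 1 in pi (Gstp), and 11 and 1 in theta (Gstt).

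**Figure D2:**
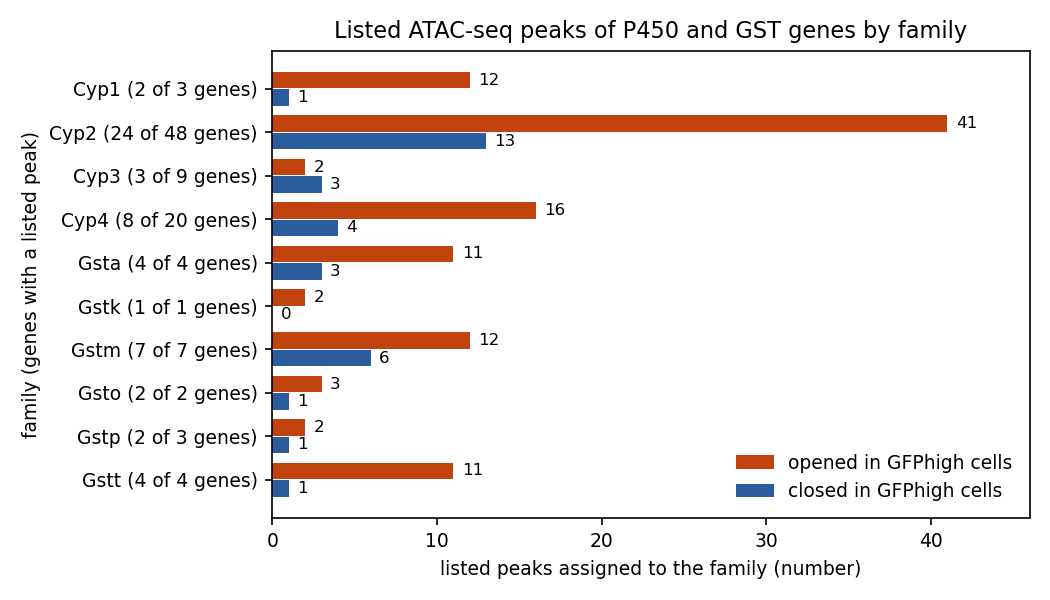
Bars give the number of opened (orange) and closed (blue) listed peaks assigned to each family (x axis), with the genes that had a listed peak beside the family's name (y axis). Cyp2 held the most peaks, 41 opened and 13 closed, and Cyp3 was the family with more closed (3) than opened (2) peaks.

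The labelled populations were checked with marker lists assigned in the same way. The 9 neuroendocrine markers had 11 opened and 64 closed peaks, and Calca, Chgb, Insm1, Resp18 and Uchl1 were among those with closed peaks only. Chga had 8 opened and 6 closed peaks, and Syp had none. The 7 club cell markers had 29 opened and 5 closed peaks, with Scgb1a1 at 12 opened and 3 closed. Markers of the alveolar AT1 cells had 53 opened and 4 closed peaks and those of AT2 cells 44 and 16, while ciliated cell markers had 13 and 15 and fibroblast markers 10 and 13. Leukocyte markers had 18 opened and 5 closed peaks although CD45-positive cells were excluded in the sort, 11 and 5 of them at Ptprc (the CD45 gene) and none at Itgam, and endothelial markers 15 opened and 45 closed. Hepatocyte markers, which share many regulators with liver P450 genes, had 5 opened and 9 closed peaks, and Alb, Fgb and Tat had none. The part of other cells in the P450 and GST peaks was not tested.

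The Cyp1 family consists of enzymes that oxidise polycyclic aromatic hydrocarbons and are induced through AHR. Cyp1b1 had the most peaks of all these genes, 12 opened and no closed, over a stretch from 71332 bp upstream to 44089 bp downstream of its start site. Its promoter peak at chr17:79715611-79716146, 818 bp upstream, had a mean normalized count of 555 and contains the sequence shown above. A smaller peak stood at the start site itself, 61 bp upstream, at chr17:79715030-79715214 with a count of 42.4. The second highest Cyp1b1 peak lay 31331 bp upstream at chr17:79746020-79746763 with 339, and a peak 13515 bp upstream at chr17:79728244-79728907 had 133.

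The other upstream peaks of Cyp1b1 were lower, at chr17:79716612-79716745 (35.9), chr17:79721324-79721638 (29.8), chr17:79761906-79762451 (61.7), chr17:79781734-79782095 (54.2) and chr17:79786352-79786434 (7.55). Downstream, an exon of Cyp1b1 held a peak at chr17:79708289-79708431 (10.7), the space behind the gene one at chr17:79691242-79691367 (8.78), and an intron of the neighbouring gene Rmdn2 one at chr17:79670735-79671169 (64.8). All 12 were opened, and they differed in level by a wide margin. Cyp1a1 stood in contrast, with 1 closed peak in its own intron at chr9:57695792-57696212, 1611 bp upstream of the nearest of its start sites, at 33.9. Cyp1a2, which is transcribed mainly in liver, had no listed peak.

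The Cyp2 genes of chromosome 7 form an array of 13 genes over 1356 kb, from chr7:25802475 to chr7:27158668. Of these genes 11 had listed peaks, 28 opened and 6 closed (82.4% opened, Wilson 66.5 to 91.7%), and no listed peak within the array was nearest to a gene outside the family. The closed peaks belonged to Cyp2a4, Cyp2g1, Cyp2a5 and Cyp2a12, and they lay between the Cyp2b10 and Cyp2f2 ends of the array. Cyp2f2, the naphthalene oxidising P450 of club cells, had 5 opened and no closed peaks, all upstream of or at its start site. The highest was 1557 bp upstream at chr7:27118039-27118664 (309.5), and the promoter peak 35 bp upstream at chr7:27119762-27119985 was lower (37.7). Farther upstream stood peaks at chr7:27111126-27111435 (58.6), chr7:27110315-27110744 (38.2) and chr7:27078733-27079033 (26.9).

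Cyp2s1, a P450 of epithelia outside the liver, lies at the other end of the array and had 6 opened and no closed peaks. Its promoter peak, 130 bp upstream at chr7:25816443-25817122, had 168, and a peak 28113 bp upstream at chr7:25844506-25845546 had 193. The other 4 were weaker, at chr7:25826097-25826290 (12.7), chr7:25827314-25827497 (14.4), chr7:25831985-25832210 (12.6) and chr7:25855149-25855381 (29.6). Its neighbour Cyp2b10, known as a target of the nuclear receptor CAR, had 5 opened and no closed peaks. The intron peak at chr7:25901828-25902674, whose centre is printed above, had 367 and was the highest peak of all Cyp2 genes. A second intron peak stood at chr7:25907301-25907766 (58.2). The peaks upstream of Cyp2b10 were at chr7:25878777-25879099 (78.9), chr7:25884269-25884587 (21.2) and chr7:25876650-25876841 (17.3). No Cyp2b10 peak lay within 1 kb of its start site.

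Peaks of both directions were found at Cyp2a5, whose enzyme oxidises coumarin and nicotine, on opposite sides of the gene. The 3 closed peaks were all upstream, at chr7:26831645-26832184 (151), chr7:26832828-26833078 (43.4) and chr7:26833158-26833266 (14.2), which is 3390, 2352 and 2093 bp from the start site. The 2 opened peaks lay behind the gene, at chr7:26849854-26850437 (97.0) and chr7:26850605-26850696 (6.64). The first of these was the single peak of the 145 in which at least 50% of the 50-base words occurred elsewhere in the genome (51.8%). The closed peak at 151 was the highest closed peak of all P450 and GST genes.

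Cyp2a4, a steroid hydroxylase gene closely related to Cyp2a5, had 1 closed peak at nearly the same place, 3442 bp upstream, with a count of 58.6. The 428 bp of this peak aligned to the Cyp2a5 peak at 3390 bp with 419 identical bases (97.9%). Of the 50-base words of these peaks, 22.4% at Cyp2a4 and 24.6% at Cyp2a5 occurred elsewhere in the genome. How the authors treated reads that map to several places is not given in the sources used here, so the counts of these copies are uncertain.

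The remaining genes of the array had fewer peaks. Opened peaks only were found at Cyp2a22 (3), Cyp2b19 (2), Cyp2t4 (2) and Cyp2b13 (1), with the highest at Cyp2a22, 23209 bp upstream (151). The promoter of Cyp2t4 had an opened peak at chr7:27153264-27153531, 316 bp upstream, with 31.5. Cyp2a12 had 2 opened peaks and 1 closed peak, and Cyp2g1, known from the olfactory mucosa, 1 closed peak. Cyp2b9 and Cyp2b23 had none.

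**Figure D3:**
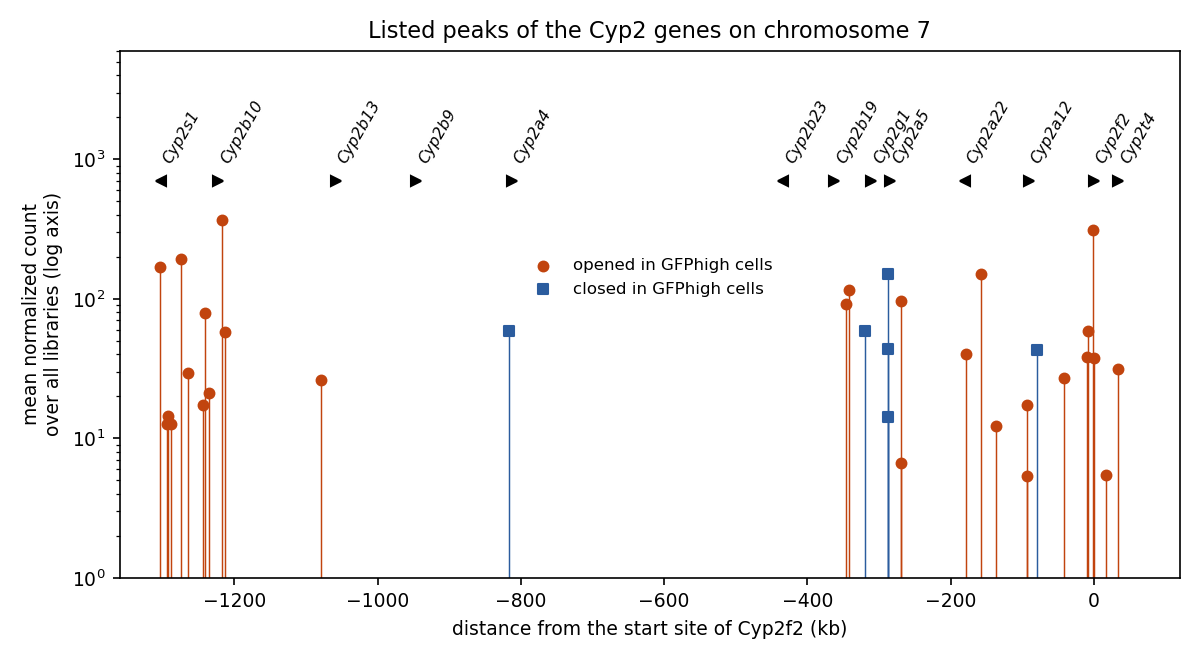
Each point is a listed peak of the Cyp2 array, with its distance from the Cyp2f2 start site in kb (x axis) and its mean normalized count over all libraries on a log axis (y axis), orange circles for opened and blue squares for closed peaks. Triangles mark the start sites and point in the direction of transcription. The highest opened peaks stand at the Cyp2b10 (367) and Cyp2f2 (309.5) ends, and the closed peaks, up to 151 at Cyp2a5, stand between them.

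Outside the array, 3 Cyp2 genes had an opened promoter peak. Cyp2r1, whose product makes the circulating form of vitamin D, had an opened promoter peak at chr7:114562495-114563283, centred 1 bp behind the start site (317), with 2 more opened peaks and 1 closed. The opened peak 26693 bp downstream lay in an exon of Pde3b. Cyp2j9, of a subfamily that makes epoxides of arachidonic acid, had 1 opened peak at its promoter, at chr4:96591232-96591990 (219.9). Its neighbours Cyp2j8 and Cyp2j13 had 1 closed peak each, outside their promoters, and that of Cyp2j8 lay in an intron of Cyp2j6. Cyp2d22 had 1 opened promoter peak at chr15:82379853-82380647 (91.9), and the other Cyp2d genes with peaks were Cyp2d26 (3 opened), Cyp2d10 (2 opened) and Cyp2d40 (1 closed). The Cyp2d26 peaks 27599 and 28806 bp upstream lay in introns of Tcf20.

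Cyp2u1, a fatty acid hydroxylase gene, had the only closed promoter peak of the P450 genes, at chr3:131302566-131302782 (70.7), within both Cyp2u1 and the overlapping gene 4930534D22Rik. Cyp2w1 had 2 opened peaks downstream of its start site, the higher of them (230.3) in an intron of 3110082I17Rik. The Cyp2c genes were nearly without listed peaks. Of 15, which include major drug and arachidonic acid oxidases of liver, 3 had 1 peak each, opened at Cyp2c23 and closed at Cyp2c55 and Cyp2c70. The Cyp2c70 peak lay 35241 bp upstream, in an exon of Pdlim1. Cyp2e1, the ethanol oxidising P450, had none.

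The Cyp3 family, which holds the main drug oxidising P450 enzymes of liver and gut, had 5 listed peaks. Both opened ones stood at the promoter of Cyp3a13, at chr5:137921536-137921850 (61.3) and chr5:137922267-137922363 (9.25). The closed ones lay in introns of Cyp3a57 (2, the higher at chr5:145354013-145354306 with 21.9) and of Cyp3a59 (1).

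The Cyp4 enzymes hydroxylate the end of fatty acid chains. Cyp4b1, abundant in normal lung, had 5 opened and no closed peaks spread around its start site. The highest was 11648 bp upstream at chr4:115659104-115659638 (205). The promoter peak at chr4:115647616-115647893 had 65.3, and a peak 1798 bp upstream at chr4:115649355-115649687 had 74.6. In its introns peaks stood at chr4:115645315-115645748 (105) and chr4:115640513-115641025 (88.4). These levels lay closer together than those of Cyp1b1 or Cyp2f2. The Cyp4a genes of the same locus, which encode targets of the fatty acid receptor PPARA, had 2 peaks, 1 opened in an intron of Cyp4a10 and 1 of Cyp4a31.

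The Cyp4f genes of chromosome 17 include oxidases of leukotriene B and of very long fatty acids. Opened promoter peaks were found at Cyp4f17 (chr17:32506137-32506724, 111), Cyp4f15 (chr17:32685449-32685711, 63.8), Cyp4f40 (chr17:32658818-32659093, 33.0) and Cyp4f39 (chr17:32452580-32452752, 29.9). In all, Cyp4f15 had 3 opened peaks, Cyp4f40 had 2 and Cyp4f17 had 1. Cyp4f39 had 3 opened peaks, the highest in an exon (122), and 3 closed ones, all in its introns at 24.2 or less. Cyp4f16 had 1 closed peak in an exon at chr17:32551034-32551413 (63.4).

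The alpha class GST enzymes act on lipid peroxides and their aldehydes, and all 4 of the genes had listed peaks. Gsta4, specialised on the lipid aldehyde hydroxynonenal, had an opened peak at an inner start site at chr9:78191750-78192120 (107), 12 bp upstream. Other opened peaks stood in its intron at chr9:78204269-78204593 (67.3) and in an exon of C920006O11Rik at chr9:78176964-78177161 (38.2), and 1 closed peak lay in an intron of Ick at chr9:78163458-78163591 (9.999). Opened promoter peaks were also seen at Gsta3 (chr1:21240286-21240699, 114) and Gsta2 (chr9:78347042-78347381, 54.6). The highest alpha class peak lay 18002 bp upstream of Gsta1 at chr9:78212352-78212955 (217). In all, Gsta3 had 4 opened peaks and 1 closed intron peak (chr1:21246185-21246581, 26.7), Gsta1 had 3 opened and 1 closed, and Gsta2 had 1 opened.

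The mu class genes form a cluster of 7 genes over 149 kb of chromosome 3, and each of them had a listed peak. The promoter peak of Gstm1 at chr3:108017345-108018234 was opened and, at 636, was the highest of all 145 peaks. Its other peak, 7323 bp downstream at chr3:108010375-108010590 (41.0), was closed. Gstm2 had 3 opened peaks, at its promoter (chr3:107986199-107986621, 142), in an exon (chr3:107983793-107984232, 71.9) and in an intron (chr3:107983711-107983785, 7.63). Gstm3 went the other way, with a closed promoter peak at chr3:107968699-107969037 (72.7) and a second closed peak.

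The other mu class genes had peaks of mostly moderate level. Gstm7 had 4 opened peaks, 1 of them at its promoter at chr3:107932270-107932384 (28.0). Gstm6 had 2 opened peaks and Gstm4 1 opened and 1 closed. The higher of these, at chr3:107953372-107953883 (139) and chr3:108032064-108032636 (159), lay within 1 kb of the start sites of the genes Gm12494 and Gm12499 and not of a mu class gene. Gstm5 had 1 opened and 2 closed peaks.

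The theta class genes, whose enzymes act on small halogenated compounds, stand within 63.3 kb of chromosome 10. Gstt1 had 4 opened peaks, at its start site (chr10:75798470-75798708, 70.7), 644 bp behind it (chr10:75796778-75797071, 46.6) and in introns (chr10:75794989-75795204, 40.5, and chr10:75789888-75790205, 22.9). Gstt2 had 6, of which 3 were at start sites, at chr10:75837243-75837727 (229.9), chr10:75834413-75834594 (45.6) and chr10:75835335-75835464 (39.8). Gstt3 had 1, at its promoter at chr10:75780723-75781619 (296). The exception was Gstt4, with 1 closed peak in its intron at chr10:75820040-75820190 (9.16).

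The pi class was split between copies. Gstp2 had a closed promoter peak at chr19:4042126-4042429 (58.8), centred 15 bp upstream of the start site. Gstp3 had 2 opened peaks, with an opened promoter peak at chr19:4059488-4059762 (26.9). Gstp1, the copy best known for its part in drug conjugation, had none. The omega class, which reduces dehydroascorbate and arsenic compounds, had an opened intron peak at Gsto1 (chr19:47859276-47859436, 19.3) and 2 opened and 1 closed at Gsto2, the highest at chr19:47890267-47890700 (61.2) and the closed one at chr19:47887633-47887717 (8.53). Gstk1, of mitochondria and peroxisomes, had 2 weak opened peaks upstream, the higher at chr6:42241505-42241608 (13.9).

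**Figure D4:**
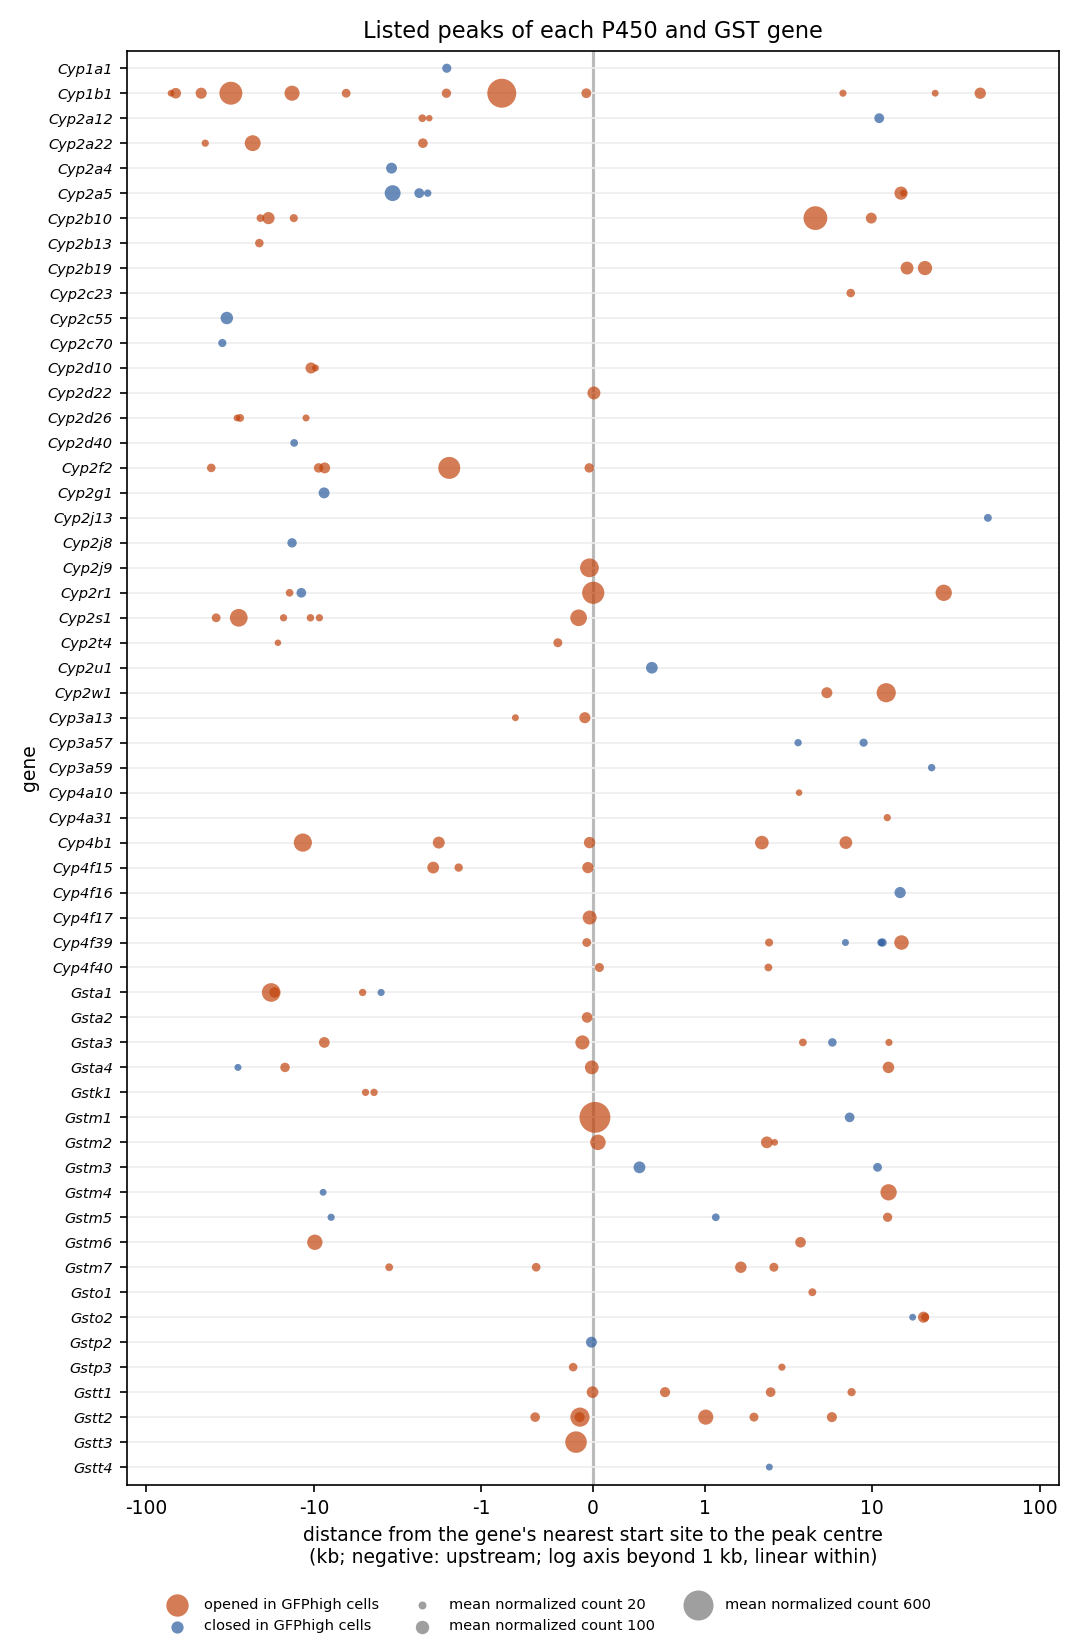
Each row is a gene with a listed peak (y axis) and each circle a peak at its distance from the nearest start site of that gene in kb (x axis, log beyond 1 kb, negative upstream), with an area that grows with the mean normalized count, orange for opened and blue for closed peaks. Single high opened peaks stand at the start sites of Gstm1, Gstt3, Cyp2r1 and Cyp2j9, and Cyp1b1 shows its 12 opened peaks on both sides.

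The listed peaks of P450 and GST genes lay nearer to start sites than listed peaks in general. Opened peaks had a median distance of 5238.5 bp, against 17457.5 bp over all opened peaks, and closed peaks one of 8698 bp, against 42432 bp. Of the 101 genes, 90 stood in loci with several of these genes, with gaps of at most 1000 kb. Where start sites are close together, assignment to the nearest of them limits the distance a peak can have. The part of this spacing in the medians was not tested. By the position of the centre, 30 of the 112 opened peaks were in promoters (within 1 kb of an annotated start site of any gene), 7 in exons, 26 in introns and 49 between genes. The intron share was 23.2% of the opened peaks (Wilson 16.4 to 31.8%), against 43.6% over all opened peaks, and the share between genes was 43.8% (34.9 to 53.0%), against 30.6%. The promoter share was 26.8% (19.5 to 35.7%), against 22.3%, and the exon share 6.25% (3.06 to 12.3%), against 3.53%. Of the 33 closed peaks 3 were in promoters, at Gstp2, Gstm3 and Cyp2u1, 2 in exons, 13 in introns and 15 between genes. The closed shares were 9.09% in promoters, against 9.68% over all closed peaks, 39.4% in introns, against 50.1%, and 45.5% between genes, against 36.7%, and each of these overall shares lay within the Wilson interval of the 33 peaks. Counted by gene, 23 of the 101 genes (22.8%) had an opened peak within 1 kb of their own start site, against 26.6% of all protein-coding genes, and 3 (2.97%) had a closed one, against 8.42%. Over all distances the median mean normalized count was 44.0 for opened and 24.2 for closed peaks, against 40.7 and 25.8 over all listed peaks. The 28 opened peaks within 1 kb of their gene's start site had a lower median, 64.5, against 168.7 over all listed opened peaks this near. They were also narrower (median 304.5 bp, against 485 bp), and the part of width in their level was not tested. Farther away the opened medians were 35.6 against 32.5, and the closed ones 22.1 against 25.0. The 3 closed peaks within 1 kb had a median of 70.7, against 40.7.

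The 44 genes without a listed peak were mostly P450 genes of dense arrays. Of all 101 genes, 80 were P450 genes and 90 stood in loci with several of these genes. Other arrays had peaks at most genes, 11 of 13 in the Cyp2 array of chromosome 7 and 7 of 7 in the mu class cluster. The 44 were 12 of the 15 Cyp2c, 6 of the 9 Cyp3a, 6 of the 8 Cyp4a, 5 of the 8 Cyp2j, 4 of the 8 Cyp2d and 4 of the 9 Cyp4f genes, together with Cyp1a2, Cyp2b9, Cyp2b23, Cyp2e1, Cyp4v3, Cyp4x1 and Gstp1. Peaks that did not pass the authors' limits are not in the lists, so a gene without a listed peak may be open in both populations, closed in both, or hard to map. In the 1000 bp around their start sites a median of 5.78% of the 50-base words occurred elsewhere in the genome, against 0.736% at the 57 genes with a listed peak. At least 50% of the words did so at 6 of the 44 genes (Cyp2b9, Cyp2c29, Cyp3a41a, Cyp3a41b, Cyp4a12a and Cyp4a12b) and at 2 of the 57 (Cyp2b13 and Gsta1). Its part in the absence of peaks was not tested.

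Short strings of 10 transcription factor motifs were searched on both strands in the central 200 bp of each peak, as GCGTG (AHR), TGACNNNGC (antioxidant response element, the site of NRF2), TGANTCA (AP-1), CATTCC (TEAD), TGTTTAC (FOX), TTGGCA (NFI half-site), CACTNNAG (NKX2), TTGCNNAA (C/EBP), AACCNGTT (GRHL) and TTCCCA (RBPJ). A match is a run of letters and not a site of binding. In 19 of 20 comparisons the share over all listed peaks lay within the Wilson interval of the P450 and GST peaks of the same list. The exception was C/EBP in the opened peaks, with 26 of 112 (23.2%, Wilson 16.4 to 31.8%) against 12.4% of all opened peaks. These 26 peaks belonged to 21 genes, 4 of them lay within 1 kb of their gene's start site, and 9 were in the Cyp2 array of chromosome 7. They included the intron peak of Cyp2b10 and the promoter peaks of Cyp2j9, Gsta3, Gstm2 and Gstp3.

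The strings of AHR and NRF2, which induce P450 and GST genes, were no more frequent in these opened peaks than over all opened peaks. No string was searched for CAR or PPARA. The AHR core was found in 18 of 112 opened peaks (16.1%, against 18.5% of all opened peaks), among them both promoter peaks of Cyp1b1. The antioxidant response element was found in 8 (7.14%, against 9.66%), among them the promoter peaks of Gsta3 and Cyp2s1. In both lists together 2 of the 12 P450 and GST peaks with an antioxidant response element also held the AP-1 string, which can overlap it, against 2360 of 9137 over all listed peaks. The TEAD string was in 21 of the opened peaks (18.8%, against 18.2%) and in 0 of the 33 closed peaks, against 8.77% of all closed peaks. A count of 0 allows a share of up to 9.09% by the limit of 3 counts, and the upper Wilson limit was 10.4%. The AP-1 string was in 12 of the opened peaks (10.7%, against 10.6%) and in 9 of the closed ones (27.3%, against 26.4%).

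**Figure D5:**
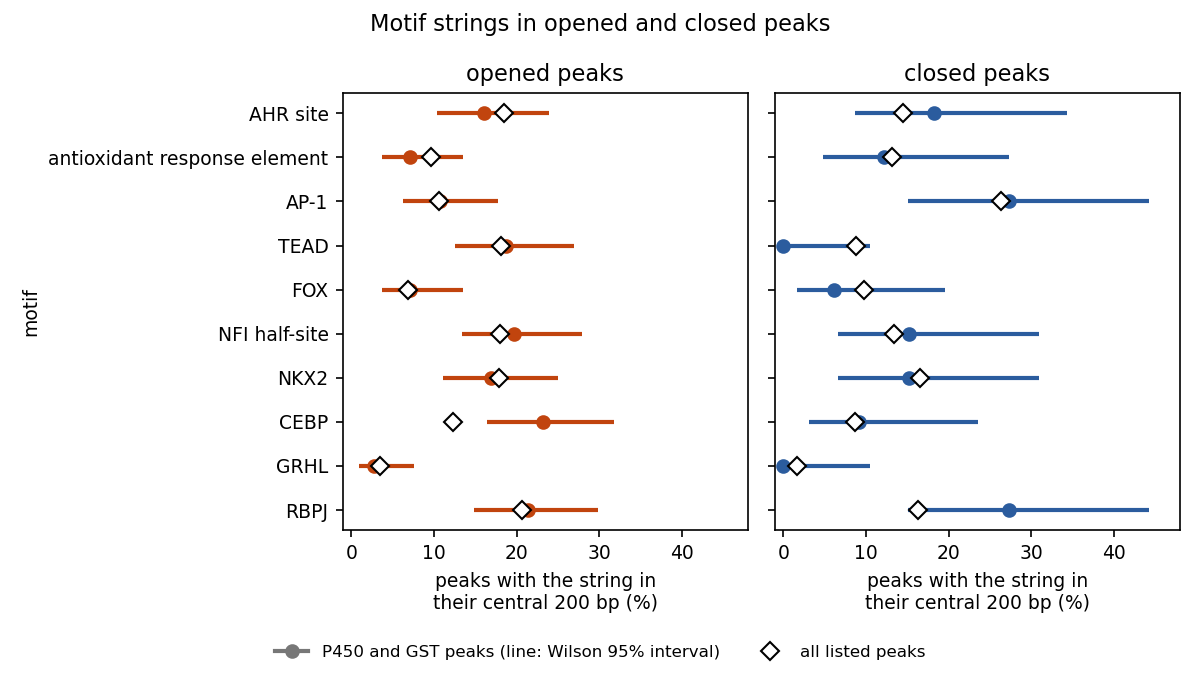
Circles give the share of P450 and GST peaks with each motif string in their central 200 bp (x axis, percent) with Wilson 95% intervals, and diamonds the same share over all listed peaks, in opened (left, orange) and closed (right, blue) peaks. The C/EBP string in opened peaks (23.2% against 12.4%) is the one whose diamond lies outside the interval.

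Other genes of xenobiotic and glutathione metabolism were described in the same way, with 69 genes in 5 lists. Of these 61 had a listed peak (88.4%, against 66.6% of all protein-coding genes), and 283 of their 386 peaks were opened (73.3%, against 50.8% of all listed peaks and 62.6% of the peaks of other genes near the P450 and GST peaks). The other enzymes of oxidation and conjugation had 57 opened and 9 closed peaks (86.4%) at 17 of 22 genes. Among them the flavin monooxygenases Fmo1, Fmo2 and Fmo5, the club cell carbonyl reductase Cbr2, the aldehyde dehydrogenase Aldh3a1 (8 peaks) and the epoxide hydrolase Ephx1 (5 peaks) had opened peaks only. Of the electron donors and heme genes, Por had 11 opened and no closed peaks and Alas1, the first step of heme synthesis, 8 and none. The list had 28 opened and 6 closed peaks. Its closed peaks were at Cyb5a (2 opened and 3 closed), Hmox2 (1 and 2) and Hmox1 (1 and 1), while Cyb5r3 had 5 opened and 0 closed.

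The list of AHR, the nuclear receptors and other regulators of these enzymes, which also holds Arnt, Tiparp, Cebpa and Cebpb, had 90 opened and 21 closed peaks (81.1%), while the NRF2 and glutathione lists below lay nearer to the 50.8% of all listed peaks. Ahr had 16 opened and 4 closed peaks, none at its promoter, and its repressor Ahrr had 1 opened peak. Ppara had 14 opened and no closed peaks, Cebpb 11 and none, and Cebpa 7 and 4. Nr1i3, which encodes CAR, had no listed peak. For NRF2 and its targets the counts were 48 opened and 27 closed (64.0%). The NRF2 gene Nfe2l2 had 11 opened and no closed peaks and Nqo1 3 and none, but Srxn1 and Gclm, which are also NRF2 targets, had closed peaks only, 3 and 1. The genes of glutathione synthesis and use had 60 opened and 40 closed peaks, with Gss at 7 opened and none closed, and Gclc, listed with the NRF2 targets, at 6 and 5.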

How the data were processed

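ATAC-seq was performed on GFPhigh and GFPneg SCLC cells (8 libraries, 16 runs), grouped by the GFP status in the labels. Per the methods and the submitters' processing notes, the authors trimmed adaptors, aligned the reads to mm10 with Bowtie2 (2.3.4.1), removed duplicates with Samtools, called narrow peaks with MACS2 with a shift that centres reads on the Tn5 insertion, merged the peaks of all samples, counted reads per peak with bedtools and compared the populations with DESeq2 (1.28.1). The signal that the authors deposited for a peak is an average, over every library, of its count after division by the library's size factor. The columns with the authors' own comparison (log2 fold change, its standard error, test statistic, p-value and adjusted p-value) were not used, so no test was made. The files had 0 columns of values per library, and the depth is unknown.

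Peaks were assigned by their centre to the nearest protein-coding start site of the GENCODE basic annotation (GRCm38, which is mm10), and positions are 1-based. Sequences were read from the GRCm38 genome of RefSeq. The software was Python (3.11.15), scipy (1.17.1), numpy (2.4.6), numba (0.67.0), pandas (2.3.3), biotite (1.4.0) and matplotlib (3.10.9), and the counting of peaks, motifs and repeated 50-base words was tested on simulated data. Motif strings were matched exactly on both strands. The members, gene lists and motif strings were chosen with earlier results of these data known. Every gene with a listed peak was named. Positions were given for all promoter peaks, for the highest opened and closed peak of each family, and for all peaks of 14 chosen genes (Cyp1a1, Cyp1b1, Cyp2a5, Cyp2b10, Cyp2e1, Cyp2f2, Cyp2s1, Cyp4b1, Gsta4, Gstm1, Gstm2, Gsto1, Gstp1 and Gstt1). For the sequences, each of these genes was represented by its highest promoter peak, or by its highest peak where it had no promoter peak. The 8 genes whose peak had the highest level were taken, and the parts in exons were left out, which left none for Gsta4 and Cyp2s1. The alternatives were other assignments of peaks, start sites and gene symbols, merging of peaks within 100 bp (with the larger of their levels kept), a minimum level of 20, promoters reaching 3 kb, motifs searched over whole peaks, and leaving out repeated sequence, Cyp1b1 or the Cyp2 array. A few genes of the marker and pathway lists are not reported here by name.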

Additional observations from a re-analysis of the deposited data

How the results depend on the processing

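No paired analysis was possible because the lists give 1 value per peak for all libraries together, and for the same reason no replicate could be left out and no normalization changed. The opened share stayed between 73.5 and 81.2% in 11 alternatives, the number of peaks between 101 and 168, and the number of genes with a listed peak between 46 and 61. Some alternatives could hardly change these values. A limit of 100 kb to the start site kept all 145 peaks. Using the nearest edge of a peak and leaving out repeated sequence each kept 144 of them. Without Cyp1b1 the share was 75.2%, and without the Cyp2 array of chromosome 7, an alternative chosen after seeing the data, 75.7%. With only peaks of a mean normalized count of at least 20 the share was 81.2% (101 peaks), against 55.0% over all listed peaks at that level. By construction, the median level was then higher, 62.7 for opened and 43.2 for closed peaks. A promoter distance of 3 kb gave 69 promoter peaks in place of 33, since a wider stretch was counted. Searching the whole peak, a longer stretch in most peaks, gave higher shares of both lists together for the antioxidant response element (14.5%), TEAD (22.8%), NFI (28.97%), NKX2 (28.3%) and RBPJ (31.0%). The other 25 motif values stayed within the interval of the central 200 bp.

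The depth of each library is unknown, so the precision of a single peak's level cannot be given, and the treatment of reads from near-identical copies is not given in the sources used here.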

Other observations

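The remaining P450 genes were chosen after their values were seen. The microsomal glutathione transferases are counted in the glutathione list above as well, and singling them out here was also done with their values known. Over all protein-coding genes 66.6% had a listed peak, and 50.8% of all listed peaks were opened. Of 20 other Cyp genes, 11 had a listed peak, with 24 opened and 17 closed peaks (58.5%). Cyp17a1, a steroid synthesis gene, had 4 opened and no closed peaks. Cyp26b1, which breaks down retinoic acid, had 7 opened and 2 closed, and its relative Cyp26a1 2 and 4. Cyp7b1, an oxysterol hydroxylase, had 3 and 6, and Cyp51, of cholesterol synthesis, had 2 closed peaks only. Mgst1, Mgst2 and Mgst3 had 11 opened and 10 closed peaks in all (52.4%), with opened peaks at the promoters of all 3 genes. Neither share was tested against that of all listed peaks.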
